A study of Canis lupus familiaris with 77 samples.

Results

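Lung made up 5 of the 76 miR-seq libraries of the beagle dog miRNA tissue atlas, taken by the tissue label of each sample. It was compared here with the 71 libraries of the 15 other tissues over all 650 miRNAs that had at least 1 read in any library. In miR-seq the short RNAs of a tissue are sequenced, and each value is the number of reads on a mature miRNA, or that number scaled to reads per 1000000 reads on miRNAs (RPM). All animals were untreated 10-month-old male beagles, and the study's methods state that they were perfused with buffered saline before the organs were removed. The other tissues were duodenum, jejunum, ileum and colon, liver and pancreas, heart and skeletal muscle, brain and sciatic nerve, thymus and bone marrow, kidney, testis, and plasma. Lung and 13 other tissues had 5 samples each, colon had 4 and sciatic nerve had 2. The study's text differs on whether the nerve RNA was pooled, so the nerve samples may not be separate dogs. The labels carry no animal number. Samples of the same dog could therefore not be paired, and every p-value measures only a spread between these samples, which differs by test. Lung samples are numbered 1 to 5 as names with no order.

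MicroRNAs are short RNAs that guide Argonaute proteins to messenger RNAs and lower their translation and stability. They are cut from hairpin precursors, either arm of which can give a mature miRNA, and neighbouring hairpins are often cut from a shared transcript. Lung consists largely of thin alveolar epithelium laid against a dense bed of capillaries, together with ciliated and secretory airway epithelium, smooth muscle around airways and vessels, fibroblasts and resident leukocytes. Several miRNAs are known to mark these cell types, among them miR-126 in endothelium, the miR-200 family in epithelium, miR-143 and miR-145 in smooth muscle and miR-34b, miR-34c and miR-449 in multiciliated cells. In whole tissue, fewer cells of a type and less RNA per cell cannot be told apart.

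The lung libraries held 860145 to 1943854 reads on miRNAs, within the range of the other libraries (157871 to 7896424). From 354 to 423 miRNAs were detected per lung library, 472 in any and 317 in every lung library. A count of 0 allows up to 3 reads, which in lung is 1.54 to 3.49 RPM. No miRNA is known to define lung, so the label was checked against markers of other organs. The pancreatic miR-216 and miR-217 summed to between 0 and 1.49 RPM in lung, the hepatic miR-122 arms to between 0 and 4.47 RPM, and cardiac miR-208a had no read. Markers of other organs were not all absent. Striated muscle miRNAs summed to 82.9 to 228 RPM in lung, brain miRNAs to 201 to 303 RPM and gut epithelial miRNAs to 2740 to 3625 RPM. Lung had rank 10, 15 and 10 of the 16 tissues for these, and rank 2 for testis miRNAs at 0 to 14.8 RPM. The endothelial miR-126 arms summed to 46113 to 73107 RPM, and the median of the lung samples was the highest of the 16 tissues.

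A few abundant miRNAs made up most of the lung profile. The 10 with the highest lung medians took 64.2% to 70.4% of the reads of a lung library. miR-143, the leading miRNA of smooth muscle, came first with 134408, 110989, 129906, 154459 and 121043 RPM in the 5 samples. These values lay close together, with a mean of 130161 ± 16273 RPM (SD, as for all means below, n = 5), but lung had only rank 5 of the 16 tissues for it, behind colon with a median of 352130 RPM. miR-10a, which is transcribed from within a HOX gene cluster, followed with 88197, 110172, 73731, 113938 and 109098 RPM. Here the lung median was the highest of all tissues, although kidney was near it at 94677 RPM and 1 testis sample was above every lung sample at 150298 RPM. The third, miR-181a, known for its part in lymphocyte development, stood between 96517 and 125102 RPM, second to brain by median.

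The rest of these 10 are broadly expressed or mark blood and vessels. Lung held 52578 to 107275 RPM of miR-26a, 47951 to 81888 RPM of miR-30a and 33213 to 48658 RPM of let-7a, and was the second highest tissue for each by median. For miR-126-5p, deposited as cfa-miR-126, the 5 lung samples read 64176, 46480, 50505, 42512 and 40874 RPM. Lung was the highest tissue for it, with heart next at a median of 39076 RPM and up to 46484 RPM, so that both tissues overlapped. miR-486, abundant in red blood cells, stood at 30188 to 62197 RPM in the perfused lung, against a median of 579253 RPM in plasma. miR-27b (27652 to 37886 RPM) and let-7f (27244 to 34815 RPM) completed the list.

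The comparison with the mean of the other tissues asked which miRNAs were particularly high or low in lung. A log-linear model of the counts was fitted over all 16 tissues with edgeR (TMM scaling, quasi-likelihood test), and the log level in lung was set against the unweighted mean of the 15 other tissues' log levels, with p-values adjusted by Benjamini-Hochberg over 480 miRNAs that passed the count filter. Lung was higher for 99 miRNAs (20.6% of those tested) and lower for 42 (8.75%) at an adjusted p under 0.05 in edgeR. Of these, 76 and 38 differed at least 2-fold. Lung medians were above 100 RPM for 60 of the higher and for only 9 of the lower miRNAs. The fit gives each tissue its own mean, so its p-values measure the spread of samples within tissues. The spread between the 15 other tissues is left out of them. With all other samples as 1 group, which brings that spread in, edgeR called 5 higher and 6 lower of 408 tested.

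The calls in the lower direction depend on the reference. Of the miRNAs tested, 183 had no read in at least 1 other tissue. The mean of the log levels of the other tissues then has no lower limit, which favours a higher call, lung cannot be called lower, and the size of the fitted difference depends on the small count that edgeR adds. Of the 183, none was called lower in edgeR, 23 were called higher, among them miR-138a, miR-200b-3p and miR-429, and 54 were lower in limma on log2(RPM + 1). Of the 297 miRNAs with a read in each other tissue, 42 (14.1%) were lower and 76 higher. In simulated data, unchanged miRNAs of this kind were also called higher more often than lower, and many 2-fold decreases were missed. These counts may hold the same lean. The simulated lung was built from the mean log level of the other tissues, so it cannot show whether they do. Fitted differences from this contrast are printed only for these 297, and only where lung had more than 3 reads in a sample, apart from sign changes of miR-138a and miR-429 under another grouping of the samples.

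**Figure D1:**
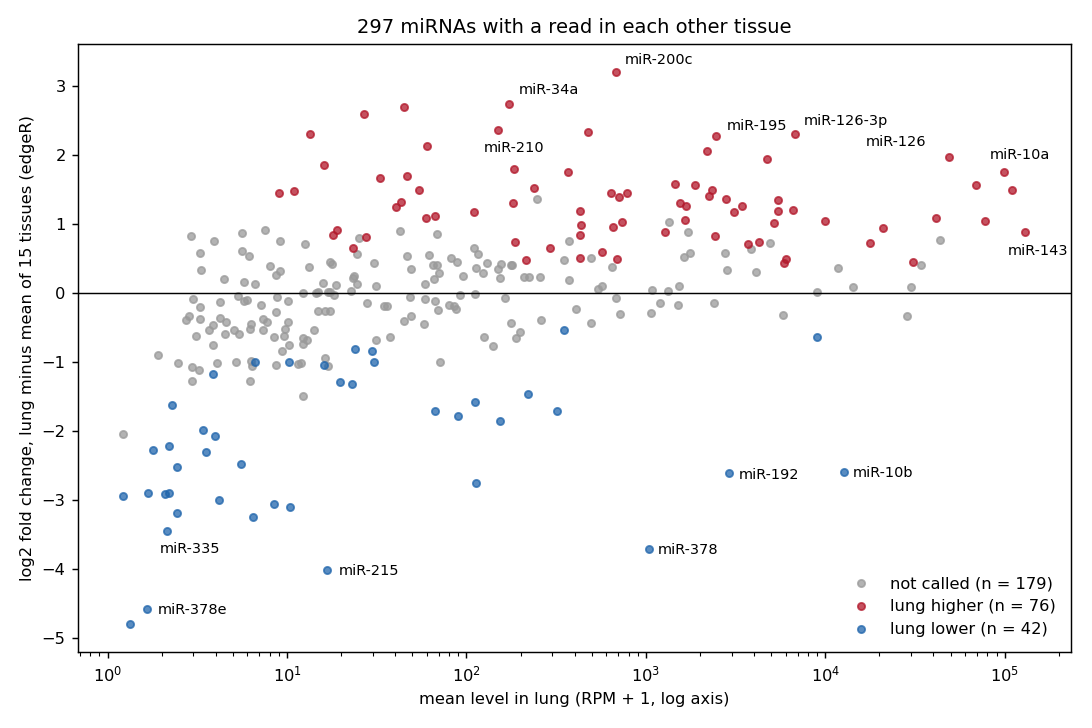
Log2 fold change of lung against the mean of the 15 other tissues (edgeR, vertical axis) against the mean level in lung (RPM + 1, log axis) for the 297 miRNAs with a read in each other tissue, with 76 called higher in red, 42 called lower in blue and the rest in grey. Most points above a level of 100 RPM lie above 0, and miR-378, miR-192 and miR-10b are the called points far below 0 at high levels. The lung level enters both axes. The fitted value is uncertain for points at the far left, where lung has few reads.

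Scaling and the choice of test moved the balance of the 2 directions. The same fit with the scaling of DESeq2 (RLE) called 62 higher and 83 lower, library size alone called 126 and 29, DESeq2 called 53 and 149, and limma on log2(RPM + 1) called 109 and 80. The share of calls that were higher was 70.2% in the fit reported here and 42.8%, 81.3%, 26.2% and 57.7% in those. Over the 297 miRNAs the median log2 fold change was 0.10 with TMM, −0.36 with RLE and 0.37 with library size, so calls with a difference of this size depend on the scaling. DESeq2 and limma changed the test as well. In all 5 settings of scaling and test 52 miRNAs were called higher and 25 lower, and none was called in opposite directions.

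**Figure D2:**
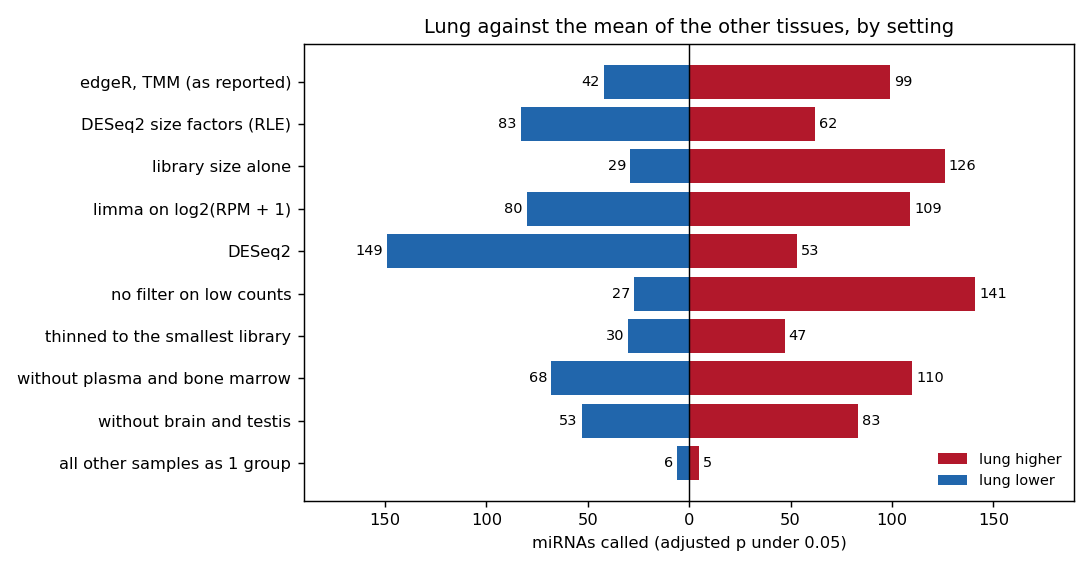
Number of miRNAs called higher (red, to the right) and lower (blue, to the left) in lung than the mean of the other tissues at an adjusted p under 0.05, for the fit reported and 9 other settings. The higher calls range from 5 with all other samples as 1 group to 141 with no filter on low counts, and the lower calls from 6 to 149.

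A rank test that takes all samples singly was stricter. In a two-sided exact rank-sum test of the 5 lung samples against the 71 others, adjusted over all 650 miRNAs, lung ranked higher for 53 miRNAs (8.15%) and lower for 7 (1.08%). Of these, 47 and all 7 were also called by edgeR in the same direction. Without adjustment the rank-sum p was under 0.05 for 97 and 29. The rank test treats the other samples as 1 group, although they come from 15 tissues. It asks whether lung stands out from single samples. An miRNA that is very high in a few tissues and near 0 in the rest can pass edgeR and miss the rank test.

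No lung miRNA reached the atlas's criterion for high tissue enrichment (HTE), which needs a lung median over 5 times the highest sample of any other tissue or a shared peak in 2 tissues. Of 266 miRNAs with a median above 100 RPM in at least 1 tissue, 3 (1.13%) met the criterion for tissue enrichment (TE), a mean over 5 times that of all other samples with an adjusted rank-sum p under 0.05. These were miR-34a, miR-210 and miR-126-3p. Without lung sample 1, or on TMM-scaled values, miR-34a alone met it. Together with miR-195 they were also the 4 miRNAs, of 650 (0.615%), of which every lung sample lay above every sample of another tissue. For none did all lung samples lie below all others.

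miR-34a, a target of p53 that restrains the cell cycle, stood furthest apart. The lung samples read 212, 153, 176, 149 and 172 RPM. All 5 lay above the highest of the 71 other samples, an ileum sample at 87.4 RPM, and the next tissue by median was sciatic nerve at 53.6 RPM. The lung mean of 172 ± 24.8 RPM was 6.76 times the mean of the other samples, and the log2 fold change against the mean of tissues was 2.74 (SE 0.205, adjusted p = 6.54e-18, edgeR). Lung was higher than each of the 15 tissues in its own edgeR contrast, the closest being pancreas with a log2 fold change of 1.42 (SE 0.364). With RLE scaling the contrast with pancreas gave an adjusted p of 0.0517 in edgeR, and with limma that with sciatic nerve gave 0.0648.

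miR-210, which is induced by hypoxia, read 193, 131, 161, 108 and 155 RPM in lung. No other sample exceeded 82.9 RPM, a pancreas sample. The lung mean of 149 ± 32.1 RPM was 5.23 times that of the others, with a log2 fold change of 2.36 (SE 0.199, adjusted p = 1.01e-15, edgeR). After TMM scaling lung was not called higher than kidney (log2 fold change 0.50, adjusted p = 0.295) or pancreas (0.65, adjusted p = 0.108), although in RPM all samples of both lay below all of lung. miR-34a and miR-210 were the only miRNAs with a median above 100 RPM in lung and in no other tissue.

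Both arms of the endothelial miR-126 hairpin, which lies within an intron of EGFL7 and is known for its part in vessel integrity, were higher in lung. The 3p arm read 8931, 7122, 7581, 5022 and 5239 RPM. The lowest of these lay above the highest other sample, a heart sample at 3937 RPM. The mean of 6779 ± 1647 RPM was 5.09 times that of the other samples, with a log2 fold change of 2.29 (SE 0.220, adjusted p = 1.33e-13, edgeR). The 5p arm had a fold of 4.06 and a log2 fold change of 1.97 (SE 0.221, adjusted p = 4.31e-11, edgeR). Neither arm was called higher than heart with TMM scaling, at adjusted p = 0.192 for the 3p arm and 1.0 for the 5p arm in edgeR, and the 3p arm passed there with library size, with limma and with no filter.

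miR-195, a member of the miR-15 and miR-16 family that targets cell cycle genes, read 2396, 2713, 2058, 2309 and 2727 RPM in lung. The values lay within a narrow band above 1781 RPM, the highest of the other samples, in duodenum. The mean of 2441 ± 284 RPM was 4.12 times that of the others, below the limit for enrichment, with a log2 fold change of 2.27 (SE 0.211, adjusted p = 3.97e-14, edgeR). Lung was called higher than each of the 15 tissues, and miR-34a and miR-195 were the only miRNAs of which this was so (0.417% of those tested). The contrast with bone marrow was the weakest, with a log2 fold change of 0.91 and an adjusted p of 0.0397 in edgeR. It did not pass with RLE scaling (adjusted p = 0.750), library size (0.148), DESeq2 or limma, or when any of lung samples 2 to 5 was left out. No miRNA was lower in lung than in each of the other tissues (0.0% of those tested, also without adjustment in edgeR), and the most was 13 tissues.

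**Figure D3:**
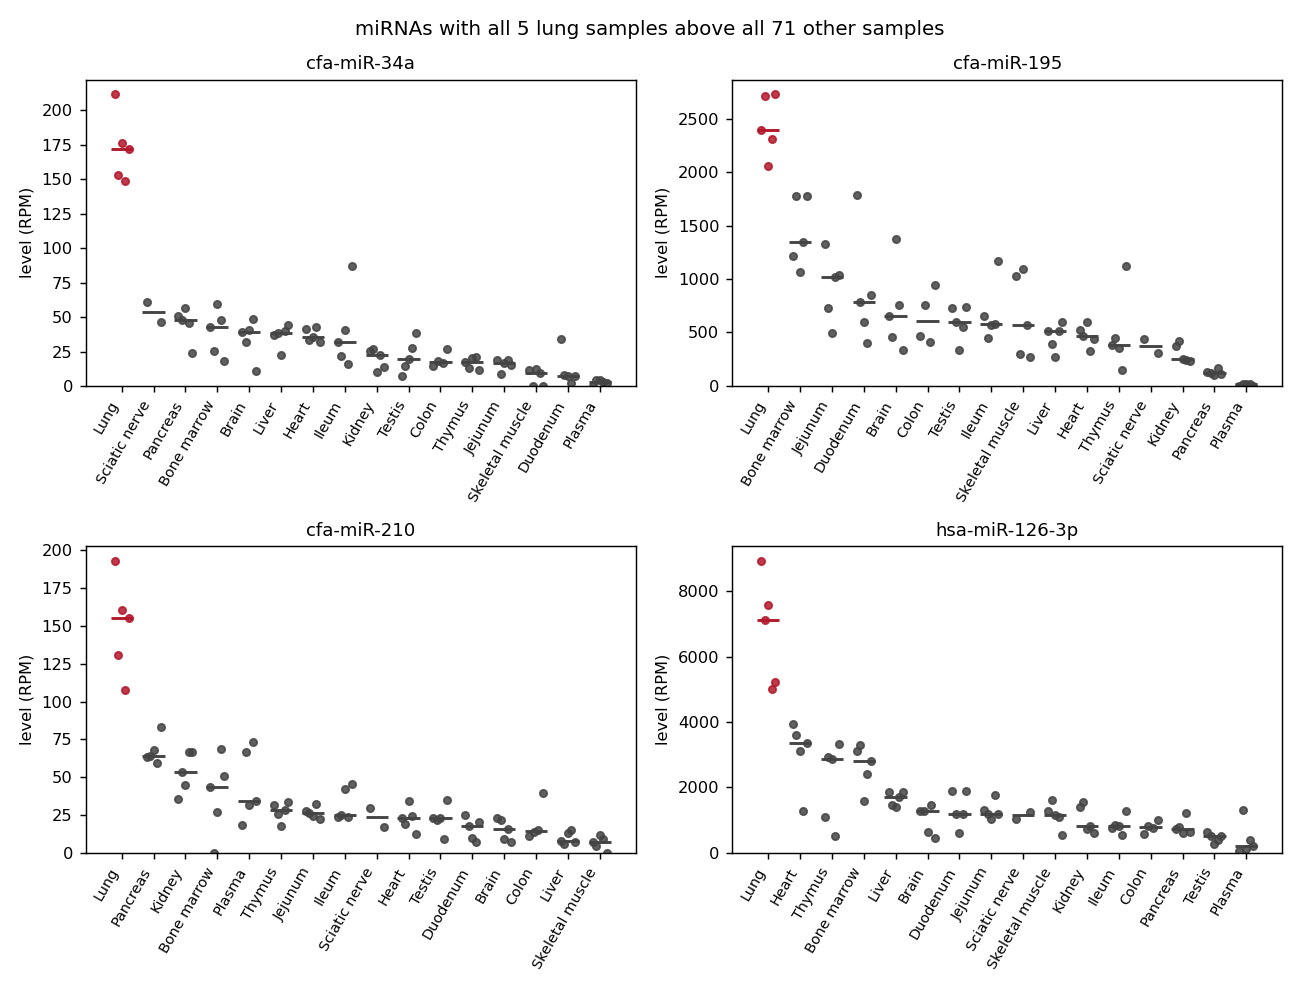
RPM of miR-34a, miR-195, miR-210 and miR-126-3p in each sample, with tissues ordered by their median (short line) and lung in red. In each panel all 5 lung samples lie above all 71 other samples, and the gap is widest for miR-34a, whose lung median is 1.97 times the highest other sample.

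The lung median was the highest of the 16 tissues for 11 miRNAs with a lung median above 100 RPM. Beside miR-10a, both arms of miR-126, miR-34a, miR-195 and miR-210 these were miR-15b, miR-497, miR-23a, miR-24 and miR-361. miR-23a, from a cluster with miR-27a and miR-24 that is active in endothelium and muscle, read 3280, 5753, 3891, 4001 and 6767 RPM. The next tissue, skeletal muscle, had a median of 2267 RPM, and lung was higher than 13 tissues with a log2 fold change of 1.94 (SE 0.200) against the mean. miR-24 (1246 to 2440 RPM) gave 1.55 (SE 0.186) and was higher than 12 tissues, while miR-497, the partner of miR-195 in its hairpin cluster, ranged more widely, from 339 to 1196 RPM, with a log2 fold change of 1.38 (SE 0.260) and higher values than in 10 tissues. The calls of miR-23a, miR-24, miR-497 and miR-15b held in the 5 settings of scaling and test. miR-361, at 141 to 240 RPM, had the smallest log2 fold change of the 11, 0.73 (SE 0.174), and was higher than 7 tissues, while miR-10a was higher than 4.

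The miR-200 family is known to hold cells in the epithelial state by repressing ZEB1 and ZEB2. Its member miR-200c had the largest positive log2 fold change among miRNAs with a lung median above 100 RPM and a read in each other tissue. It read 560, 550, 559, 784 and 932 RPM in lung. Samples 4 and 5 were above the other 3, and all 5 lay within the range of colon (542 to 1444 RPM of cfa-miR-200c) and above every heart sample (at most 7.14 RPM). The log2 fold change was 3.20 (SE 0.481, adjusted p = 1.80e-07, edgeR), although the lung mean was only 1.65 times that of all other samples. The measures weigh tissues differently, since lung was called higher than 9 tissues and pancreas, with a median of 1834 RPM, was above it. Its partner miR-141 (1616 to 2573 RPM) had a log2 fold change of 2.06 (SE 0.572, adjusted p = 0.00358, edgeR) with a mean 0.831 times that of the other samples.

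The second hairpin cluster of the family behaved alike. miR-200a-3p read 370 to 635 RPM in lung, with a log2 fold change of 2.33 (SE 0.513, adjusted p = 1.84e-04, edgeR). miR-200b-3p (896 to 1656 RPM) and miR-429 (228 to 456 RPM) were also called higher, but a tissue without a read leaves the size of their difference open. Lung was higher than 8 tissues for miR-200b-3p and than 7 for miR-429, and lower than none. By median, lung had rank 5 of the 16 tissues for miR-200c, miR-200b-3p, miR-429 and miR-200a-3p and rank 4 for miR-141. None of these 5 ranked above the other samples by the exact rank-sum test, where the smallest adjusted p was 0.284.

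miR-138a, which is abundant in neurons, was the remaining miRNA among the 10 with the largest positive values. The lung samples read 184, 121, 303, 206 and 73.6 RPM. Their coefficient of variation (CV) was 49.2%, and lung was higher than 13 tissues, lower than brain alone, and ranked above the other samples (adjusted p = 0.0207, exact rank-sum test). Brain held a median of 6594 RPM of cfa-miR-138a and sciatic nerve 309 RPM, while the 5 bone marrow samples had no read, so that its fitted difference gives no fold. The mean in lung was 0.426 times that of all other samples. In all, 16 miRNAs that edgeR called higher had a lung mean below that of the other samples, and 4 of them, miR-138a, miR-141, miR-146b and miR-182, had a lung median above 100 RPM.

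Among miRNAs expressed in most tissues, miR-378 was the lowest in lung. It lies in an intron of PPARGC1B and is known from tissues rich in mitochondria. The lung samples read 722, 1150, 1156, 637 and 1505 RPM, against tissue medians of up to 64685 RPM in heart. The lung mean of 1034 ± 355 RPM was 0.0496 times that of the other samples and the log2 fold change was −3.72 (SE 0.508, adjusted p = 1.74e-08, edgeR). Lung was lower than 12 tissues, and the contrasts with bone marrow, brain and plasma were not called. The opposite arm, miR-378a-5p, read 2.33 to 10.8 RPM in lung and gave −3.25 (SE 0.613). The related miR-378e had 0 to 1.16 RPM in lung and was lower there than in 13 tissues, though it may share reads with miR-378.

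Both arms of miR-335, made from an intron of the imprinted gene MEST, were close to absent. The lung samples held 2.33, 0, 0.514, 0 and 2.83 RPM of cfa-miR-335. Its median was the lowest of all tissues and was 271 RPM in brain. The log2 fold change was −3.46 (SE 0.563, adjusted p = 9.75e-07, edgeR), and lung was lower than 13 tissues for this arm and for miR-335-3p (0 to 3.41 RPM). miR-335, miR-335-3p, miR-378, miR-378a-5p and miR-378e were 5 of the 7 miRNAs that ranked lower in lung by the exact rank-sum test. The others were miR-410 (0 to 19.8 RPM) and miR-4492 (0 to 2.26 RPM).

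miR-10b and its close relative miR-10a were called in opposite directions. miR-10b lies beside the HOXD genes and differs little from miR-10a, which lies beside HOXB genes. The lung samples read 7938, 12107, 7490, 22592 and 13297 RPM of cfa-miR-10b. Sample 4 was well above the rest, and all 5 were below every kidney sample (297875 to 547844 RPM). The log2 fold change was −2.60 (SE 0.498, adjusted p = 2.11e-05, edgeR), with lung lower than 10 tissues and higher than liver and brain. For miR-10a the log2 fold change was 1.75 (SE 0.389, adjusted p = 2.10e-04, edgeR). The minor arms followed their partners, with 1.69 (SE 0.322) for miR-10a-3p at 39.0 to 56.6 RPM and −2.90 (SE 0.631) for miR-10b-3p at 0 to 3.41 RPM. miR-196a and miR-196b, which also lie in HOX gene clusters, reached at most 2.23 and 5.21 RPM in lung, against kidney medians of 473 RPM for cfa-miR-196a and 304 RPM for cfa-miR-196b.

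miRNAs of intestinal epithelium lay below the mean of the other tissues' log levels. By median lung had rank 10 of the 16 tissues for miR-192 and for miR-194. Neither ranked lower than the other samples (adjusted p = 0.596 for both, exact rank-sum test). miR-192 read 2627, 3456, 2879, 2891 and 2722 RPM in lung. The samples lay close together, and jejunum, the highest tissue, had a median of 302243 RPM of cfa-miR-192. The log2 fold change was −2.62 (SE 0.477, adjusted p = 8.76e-06, edgeR). miR-194, at 60.2 to 139 RPM, gave −2.75 (SE 0.530), and miR-215, at 2.33 to 32.0 RPM, gave −4.02 (SE 0.791). For miR-215 the lung median of 9.05 RPM was the lowest of the 16 tissues. Lung was lower than 7 or 8 tissues for each of them and higher than none.

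The other broadly expressed miRNAs with the most negative values were lower than 6 to 11 tissues. They were miR-133a of striated muscle (67.0 to 202 RPM, log2 fold change −1.86, SE 0.612), miR-1307-5p (59.1 to 121 RPM, −1.78, SE 0.416), miR-128 of neurons (178 to 264 RPM, −1.46, SE 0.360), and miR-381 (46.5 to 81.8 RPM, −1.72, SE 0.553), miR-127 (172 to 454 RPM, −1.71, SE 0.627) and miR-411 (62.8 to 162 RPM, −1.58, SE 0.551) of the imprinted DLK1-DIO3 region. Samples 4 and 5 held the highest levels of all 3 from that region. The calls of miR-127, miR-133a, miR-381 and miR-411 were lost with limma on log2(RPM + 1) and when 1 or more of the lung samples was left out. miR-1307-5p and miR-128 were called lower in all 5 settings of scaling and test.

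Grouped by cell type, the lists for endothelium, epithelium, fibroblasts and leukocytes had the largest shares of higher calls. Of the general epithelial miRNAs 11 of 14 tested were higher and none lower, against 20.6% higher over all 480 tested. In this list 8 of the 14, and 7 of the 11 called, had another tissue without a read. The list includes the miR-200 family, miR-375 and the cluster of miR-183, miR-96 and miR-182, and summed to 7175 to 10485 RPM in lung, which put it at rank 6 of the 16 tissues. With RLE scaling 8 of the 14 were called, and with DESeq2 7. miR-182 read 848, 1602, 2764, 2922 and 3033 RPM. Sample 1 was the lowest and samples 3 to 5 lay close to each other, and the log2 fold change of 1.40 (SE 0.540, adjusted p = 0.0414, edgeR) did not pass with RLE or DESeq2. miR-205, of basal epithelial cells, read 46.9 to 127 RPM, second only to testis by median, and lung was higher than 10 tissues for it. miR-203, of stratified epithelium, read 55.7 to 114 RPM and was not called.

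miRNAs of multiciliated cells were at low levels in RPM. The 7 of them summed to 29.1 to 207 RPM in lung, with a median of 77.4 RPM against 22.2 RPM over the other samples. By this sum lung had rank 3 of the 16 tissues, and testis was the highest. Of the 7, 6 had another tissue without a read. miR-449a, 1 of these 6, was the only member called higher. It read 3.49, 6.70, 0.514, 43.2 and 16.4 RPM, with sample 4 highest, and lung was higher than 7 tissues and second to testis, with a median of 3159 RPM of cfa-miR-449a. miR-34c read 23.3, 63.3, 28.8, 151 and 73.0 RPM and was not called (log2 fold change 0.85, SE 0.560, adjusted p = 0.304, edgeR). Sample 4 was again the highest. In limma none of the 7 was called.

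Both endothelial arms of miR-126 were called in each of the 5 settings, as described. Of the smooth muscle miRNAs miR-143 was called, with a log2 fold change of 0.88 (SE 0.332, adjusted p = 0.0353, edgeR). miR-145, its partner in the hairpin cluster, read 1377 to 2159 RPM and had the same estimate of 0.88 (SE 0.365) with an adjusted p of 0.0606. Neither was called with RLE scaling, and lung was lower than 2 tissues for both. Of the fibroblast miRNAs 4 of 5 were higher, against 20.6% of all 480 tested, with a median log2 fold change of 0.84 against 0.10 over all 297. The member not called, cfa-miR-199, was the most abundant, with a mean of 3857 RPM and a log2 fold change of 0.63. By the sum of the list lung had rank 5 of the 16 tissues. The largest log2 fold change was that of miR-199b-5p (273 to 532 RPM, 1.75, SE 0.261), and next came miR-214 (142 to 372 RPM, 1.52, SE 0.331). These 2 were the members called with RLE scaling.

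The leukocyte list divided. The inflammation-linked miR-155 read 612, 699, 716, 838 and 1047 RPM, with a log2 fold change of 1.45 (SE 0.312, adjusted p = 1.49e-04, edgeR). Ileum was the highest tissue, at 2264 RPM by median. miR-146a read 1436, 1736, 1194, 2980 and 4273 RPM and gave 1.49 (SE 0.324), with samples 4 and 5 well above the rest. The myeloid miR-223 read 23.9 to 93.6 RPM, with a log2 fold change of 2.12 (SE 0.330) but a mean 0.174 times that of the other samples, and bone marrow had a median of 3686 RPM. The pan-leukocyte miR-142 (704 to 2136 RPM) and miR-142-3p were not called. In all 6 of the 8 tested were higher, and 4 with RLE scaling, against 99 and 62 of all 480. The list as a whole summed to a median of 5364 RPM in lung, against 5272 RPM over the other samples. By this sum lung had rank 8 of the 16 tissues.

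Erythroid miRNAs were not called in either direction in the fit reported, nor with RLE or DESeq2. With library size 2 of the 4 were called higher, and with limma 1. miR-486 was called higher in both of these settings and without plasma and bone marrow. miR-451 read 5215, 9124, 5485, 926 and 3889 RPM, with a log2 fold change of 0.72 (SE 0.378, adjusted p = 0.155, edgeR). Sample 4 was by far the lowest and sample 2 the highest. miR-144 (14.8 to 130 RPM) was also lowest in sample 4, and miR-486 in sample 5. The part of residual blood in the values of single lung samples was not tested. Beside the gut and liver miRNAs, lung was lower for 3 of 10 striated muscle miRNAs and 2 of 7 brain miRNAs, against 8.75% of all tested. miR-124-5p of the brain list was called higher, a call lost with DESeq2 and with limma. By the sum of the brain list lung had rank 15 of the 16 tissues. Of these lists 6 and 4 members had another tissue without a read, which favours a higher call, and could not be called lower. The lower brain miRNAs were miR-128 and miR-9, the latter with 1.16 to 12.3 RPM (log2 fold change −3.07, SE 0.439, adjusted p = 5.50e-08, edgeR).

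**Figure D4:**
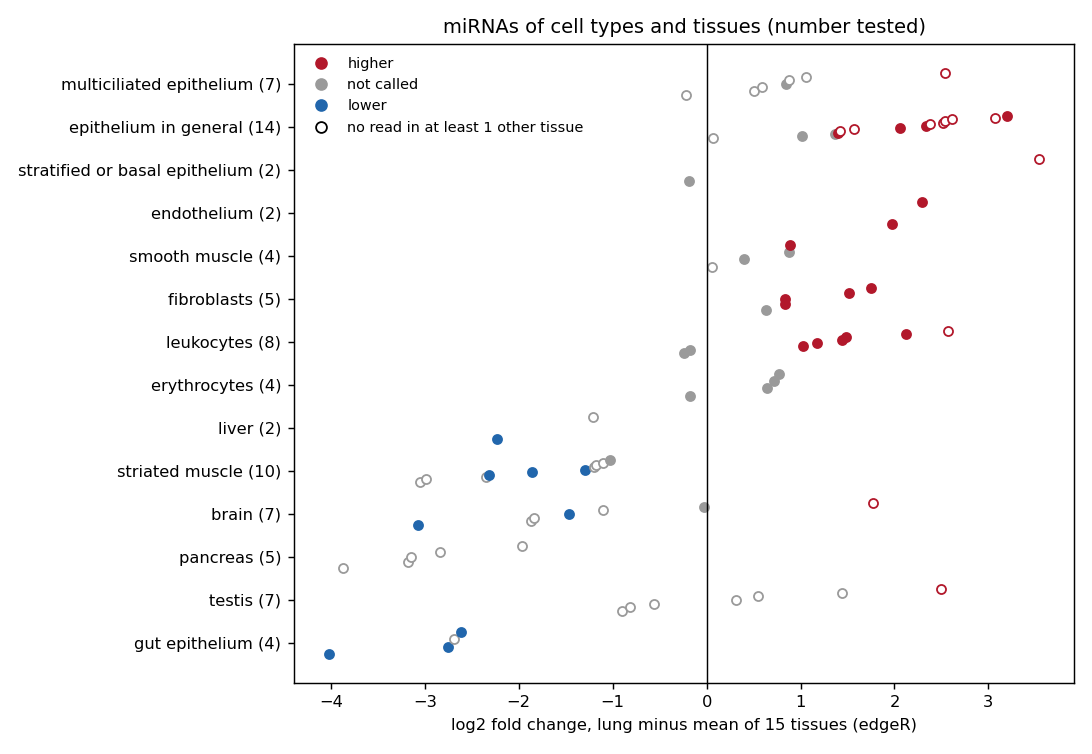
Log2 fold change of lung against the mean of the other tissues (edgeR) for each miRNA tested of 14 lists of cell types and tissues, with the number tested in brackets. Red points were called higher, blue lower and grey not called, and open points are miRNAs with no read in at least 1 other tissue, whose position depends on the count added by edgeR and cannot show a lower call. Epithelium, endothelium, fibroblasts and leukocytes lie mostly to the right of 0, and striated muscle, pancreas and gut epithelium to the left.

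Among families of related miRNAs the members often share reads where their sequences are nearly identical, so calls of single members are uncertain. In the let-7 and miR-98 family, which promotes differentiation, 7 of 14 tested were higher and none lower, against 99 and 42 of all 480, with let-7e at a log2 fold change of 1.30 (SE 0.203), let-7b at 1.20 (SE 0.221) and let-7a at 1.08 (SE 0.154). The family summed to 82375 to 106035 RPM in lung, second to sciatic nerve by median. With RLE scaling these 3 members were called and let-7f had an estimate of −0.01. let-7d-5p had the smallest relative spread of all well expressed lung miRNAs, with 649, 680, 670, 720 and 719 RPM.

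The miR-99, miR-100 and miR-125 family had 8 of 9 members higher, against 20.6% of all tested. Of them 4 were called with RLE scaling and 3 with DESeq2, and 2 members had another tissue without a read. miR-125a read 3209, 3809, 3339, 3441 and 3389 RPM (log2 fold change 1.26, SE 0.250) and miR-99b 2480 to 3274 RPM (1.36, SE 0.274). By the sum of the family lung had rank 4, and brain was the highest. Of the miR-23, miR-24 and miR-27 clusters 6 of 8 were higher, including miR-27a-5p, which is scarce (29.1 to 61.7 RPM) but was higher than in 13 tissues with a log2 fold change of 2.69 (SE 0.308, adjusted p = 1.0e-10, edgeR). For miR-27b the estimate was 0.41 (SE 0.209) and was not called in the fit reported, with RLE or with DESeq2. It was called higher with library size and with limma, and ranked higher by the exact rank-sum test (adjusted p = 0.0305). In the miR-15, miR-16, miR-195 and miR-497 family the 3 members called, miR-15b, miR-195 and miR-497, were called in each of the 5 settings, while miR-16 (7789 to 16531 RPM) and miR-15a were not.

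For miR-30, which is high in epithelial and cardiac tissue, 5 of 11 were higher, against 20.6% of all 480 tested. miR-30a gave a log2 fold change of 1.56 (SE 0.217), miR-30a-3p 1.58 (SE 0.264) and miR-30c-2-3p, at 173 to 204 RPM, 1.80 (SE 0.276). These 3 were called in all 5 settings and the other 2, miR-30c and miR-30d, were not called with RLE. With RLE and with DESeq2 1 member, hsa-miR-30e-5p, was called lower. None of the 21 tested members of the miR-17 to miR-92 clusters, which are known from proliferating cells, was called in either direction in edgeR, and neither was any of the 6 of miR-29. With RLE scaling 2 and 3 of them were called lower. Both tested arms of miR-218 were higher in all 5 settings, at 114 to 270 RPM for the main arm (1.31, SE 0.231).

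By Spearman's correlation over all 650 miRNAs, a description across miRNAs that share their libraries, the lung samples resembled each other most, with a mean of 0.935 over 10 pairs (0.915 to 0.951). Kidney came next at 0.887, then ileum at 0.883 and colon at 0.879, neighbours that differ by less than the spread of their pairs. Brain was the least alike at 0.707. Kidney also had the fewest miRNAs called between it and lung, with lung higher for 47 (9.79%) and lower for 80 (16.7%). Against brain lung was higher for 132 and lower for 185.

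**Figure D5:**
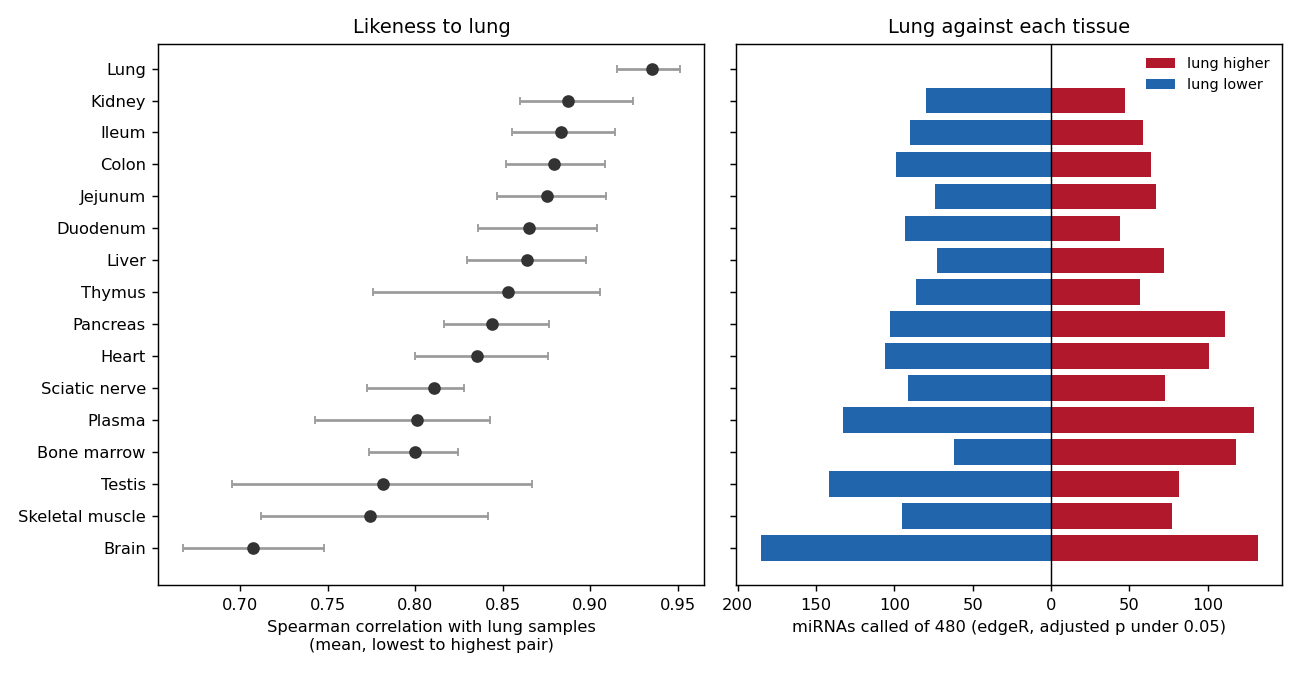
Left, Spearman correlation of lung samples with the samples of each tissue over all miRNAs, as the mean with bars from the lowest to the highest pair, in which lung pairs average 0.935 and brain 0.707. Right, the number of 480 miRNAs called higher (red) and lower (blue) in lung than in each tissue in the same order (edgeR), from 127 in all for kidney to 317 for brain.

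Against kidney, epithelial and leukocyte miRNAs with a lung median above 100 RPM showed the largest gains. miR-375, known from endocrine and neuroendocrine cells, read 1315, 889, 1769, 1497 and 1209 RPM in lung and 4.07 to 14.2 RPM in kidney. The groups did not overlap, and the log2 fold change was 6.13 (SE 0.899, adjusted p = 1.07e-07, edgeR). miR-183 (3.99, SE 1.01) and miR-182 (3.42, SE 0.930) of the sensory cluster and the lymphocyte miRNAs miR-150 (3.41, SE 0.581) and miR-155 (3.07, SE 0.533) followed. In the other direction cfa-miR-10b had a log2 fold change of −5.95 (SE 0.665), the tubular miR-204 one of −5.21 (SE 0.591) with 270 to 472 RPM in lung against 6267 to 9751 RPM in kidney, and miR-378a-5p one of −5.23 (SE 0.735). miR-196a and miR-196b were the lowest of all relative to kidney.

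Against ileum lung was higher for 59 miRNAs (12.3%) and lower for 90 (18.8%). The erythroid miR-486 led, with a log2 fold change of 3.86 (SE 0.736, adjusted p = 3.19e-05, edgeR) and 864 to 8321 RPM in ileum, below every lung sample. Then came miR-30a-3p (3.20, SE 0.459), miR-30c-2-3p (3.04, SE 0.483), miR-204 (2.96, SE 0.537) and miR-126-3p (2.91, SE 0.406). miR-204 was thus lower in lung than in kidney and higher than in ileum. The largest losses were in gut miRNAs, with 9365 to 44871 RPM of miR-215 in ileum, 3909 to 24986 RPM of miR-194, and 39.1 to 152 RPM of miR-802, of which no lung sample had a read.

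The lung samples were not uniform. Over the 124 miRNAs with a lung median above 100 RPM the CV between the 5 samples had a median of 22.3%, and it was above 50% for 5 of them. The highest was miR-146b, with 223, 348, 432, 1267 and 1395 RPM, where samples 4 and 5 were far above the rest. miR-451 had a CV of 60.1%, miR-144-5p of 58.5%, miR-146a of 55.4% and miR-425 of 53.8%. For miR-425, which is no member of the lists used here, sample 1 read 15.1 RPM and the rest 136 to 206 RPM. Sample 4 held the lowest value of 54 of the 124 miRNAs and sample 3 the highest of 41. No lung sample passed Dixon's critical value of 0.71 in any of 81 groups tested, 43 named miRNAs and 38 lists.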

How the data were processed

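Total RNA of 16 tissues of untreated beagles was sequenced as miR-seq libraries. Per the study's methods, the authors clipped adaptors, aligned reads without mismatch to CanFam3.1 with OSA, dropped reads at more than 10 genomic locations, and with bedtools counted those that overlapped at least 70% of an annotated miRNA locus, known or mapped from human or rat. The deposited table gives raw counts per mature miRNA and the authors' RPM, counts per 1000000 reads on miRNAs in a sample. miRNAs that are not listed in a sample were taken as 0 reads. Of 77 labelled samples 76 had values, 1 colon sample had none, and 1 sample name in the table matched no label and was not used. Counts of near-identical or neighbouring loci may share reads. RPM is a share of a library, so a few abundant miRNAs move the rest, and TMM factors were 1.02 to 1.39 in lung and 0.344 to 2.69 elsewhere.

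Counts were tested with edgeR 4.0.16 in R 4.3.3 (filterByExpr by tissue, TMM, quasi-likelihood fit with a coefficient per tissue), and RPM with an exact two-sided rank-sum test in scipy 1.17.1, whose smallest possible p for 5 against 71 samples is 1.08e-07. Adjusted p-values are Benjamini-Hochberg values, called under 0.05. DESeq2 1.42.0, limma 3.58.1 on log2(RPM + 1), other scalings, thinning to the smallest library and leaving out samples or tissues served as alternatives, and 1 restriction, to miRNAs with a read in each other tissue, was added after seeing the data. The tests were tested on simulated data. For edgeR the simulated lung was set to the mean log level of the other tissues before changes were added, unlike real lung. There, among miRNAs with a read in each tissue, the edgeR contrast recovered nearly all changes of 4-fold, missed many decreases of 2-fold, and called unchanged miRNAs higher more often than lower. The miRNAs named are the 10 highest in lung, those enriched in lung or above every other tissue, the 10 largest differences in each direction among well expressed miRNAs, the 5 largest against each of the 2 nearest tissues, and members of fixed lists. Members and lists were chosen with earlier results of these data known. No miRNA sequences were used here. Floors of 3 reads cover counting error only.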

Additional observations from a re-analysis of the deposited data

How the results depend on the processing

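No paired analysis was possible because the labels carry no animal number, and the order of samples was not taken as pairing. Higher and lower counts against the mean of the tissues, 99 and 42 as reported, were 62 and 83 with RLE scaling, 53 and 149 with DESeq2, 126 and 29 with library size, 141 and 27 with no filter on low counts, 109 and 80 with limma, 47 and 30 of 325 after thinning, 110 and 68 without plasma and bone marrow, 83 and 53 without brain and testis, and 5 and 6 with all other samples as 1 group. Among miRNAs with a read in each other tissue they were 84 and 45 when p-values were adjusted over these miRNAs alone. Leaving out a tissue gave 79 to 127 and 31 to 54. Leaving out 1 sample gave 83 to 130 and 25 to 43, with 25 lower calls without Lung 3. miRNAs higher than each tissue, 2 as reported, were 0 with RLE, 4 with library size or no filter, 1 with DESeq2, thinning or without brain and testis, 5 without plasma and bone marrow, and 0 to 4 with 1 sample left out. None was lower than each tissue in any of these settings. Calls over the 15 single-tissue contrasts summed to 2746 and to 1736 after thinning. The exact rank-sum counts of 53 higher and 7 lower became 23 and 4 on TMM-scaled values, 9 and 12 with size factors, 36 and 3 after thinning, and 64 and 16 without plasma and bone marrow. With 1 sample left out they were 16 to 56 and 2 to 8, and 16 to 26 and 2 to 3 where that sample was a lung sample. The 3 TE miRNAs became 1 (miR-34a) on TMM-scaled values, 0 with size factors, 2 after thinning, 6 without the expression limit, 7 by medians, and 1 to 3 with 1 sample left out, where 1 is without Lung 1. No HTE miRNA arose. Of 4300 alternatives for 43 named miRNAs, 4016 kept their direction and side of the threshold, 163 passed newly, 112 no longer passed and 9 reversed. cfa-let-7f reversed to −0.0135 with RLE and to −0.0136 with DESeq2. With all other samples as 1 group, cfa-miR-138a reversed to −0.66, cfa-miR-141 to −0.94, cfa-miR-143 to −0.24, cfa-miR-150 to −0.40, cfa-miR-182 to −0.63, cfa-miR-429 to −0.18 and hsa-miR-200a-3p to −0.38. A count of 0 allows 1.54 to 3.49 RPM in lung but up to 19.0 RPM in the shallowest other library. Beyond thinning and the restrictions named, the causes of these shifts were not tested.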

Other observations

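In the RefSeq gene table of the dog assembly UU_Cfam_GSD_1.0, used here only for which genes are neighbours, 381 of 490 miRNA genes were matched by name to a measured miRNA. Genes within 10000 bases of the next were taken as a cluster, which gave 47 clusters with at least 2 tested members, some of which share a mature miRNA. Of these 28 held a call in edgeR. All tested members were higher in lung in 10 clusters and lower in 1, called and uncalled members stood together in 17, and no cluster held calls in both directions. With RLE scaling or with DESeq2 7 clusters were higher throughout, with library size 18 and with limma 17. Clusters lower throughout were 3 with RLE, 8 with DESeq2, 1 with library size and 2 with limma. The cluster of miR-99b, let-7e and miR-125a had log2 fold changes of 1.26 to 1.36, and the paralogous cluster of miR-99a and let-7c had no member called with RLE or DESeq2. In the cluster of miR-200b, miR-200a and miR-429 each member had no read in at least 1 other tissue. The cluster lower throughout in the fit reported was that of miR-215 and miR-194. Both of its members were also called lower with RLE, library size, DESeq2 and limma.

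The DLK1-DIO3 region is an imprinted region with many miRNA genes. It holds a cluster that runs from MIR379 to MIR410, with 24 tested miRNAs. Of these 4 were called lower in lung with edgeR, 16 with DESeq2 and 13 with limma, against 42, 149 and 80 of all 480. Of the 24, 20 had no read in at least 1 other tissue, so that edgeR could not call them lower. These fits also differ in scaling or test, and the cause of the different counts was not tested. Of 5 in the cluster from MIR493 to MIR136, edgeR called 3 lower. Of 127 miRNA names with a 5p and a 3p arm tested, the arms had the same sign in 97. Both arms were called higher in 16 and both lower in 4, where 99 and 42 of all 480 single miRNAs were called. In others, such as let-7a and miR-143, 1 arm was called higher and the other was not called. In none were the arms called in opposite directions, but an arm with no read in another tissue could not be called lower. Neighbours and arms come from the same libraries and can come from 1 precursor, so they are not independent measurements.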
